A study of Homo sapiens with 12 samples.

Results

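The G1 cyclins and their inhibitors set whether a cell enters a new round of division, and 10 of these genes were followed in NCI-H295R cells treated with 2 cortisol biosynthesis inhibitors. The genes were taken by symbol from the deposited table of 60662 genes: the D-type cyclins CCND1, CCND2 and CCND3, the E-type cyclins CCNE1 and CCNE2, the CIP/KIP inhibitors CDKN1A and CDKN1B, and the INK4 inhibitors CDKN2A, CDKN2B and CDKN2C. Each symbol matched a single row. NCI-H295R is an established cell line from a human tumour of the adrenal cortex, and it makes cortisol. The 3 groups of 4 samples were vehicle (VEH, 0.1% DMSO), the benzimidazolylurea derivative CJ28 at 30 µM and metyrapone (MET, an inhibitor of 11β-hydroxylase) at 30 µM. Exposure lasted 24 h, on confluent cultures from which serum had been withdrawn 12 h earlier. All groups thus share confluence and serum withdrawal, and all come from a single line. RNA was measured in bulk, so fewer cycling cells and less RNA per cell cannot be told apart.

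D-type cyclins bind CDK4 and CDK6 early in G1, and E-type cyclins bind CDK2 later. Both kinase complexes phosphorylate RB1 and its relatives, which frees E2F factors to switch on genes of DNA replication. The INK4 proteins p16 (from CDKN2A), p15 (CDKN2B) and p18 (CDKN2C) block CDK4 and CDK6. The CIP/KIP proteins p21 (CDKN1A) and p27 (CDKN1B) block CDK2 complexes and also help to assemble cyclin D with its kinase. CDKN2A encodes a second protein, p14ARF, from another first exon, and the gene-level table does not separate the transcripts.

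In CJ28 the E-type and D-type cyclins that these cells express fell, and so did the INK4 gene CDKN2C. The CIP/KIP inhibitors and the INK4 gene CDKN2A stayed near their VEH level. CCNE2 fell most, from 11.6 to 2.22 TPM. CCND1, the best known D-type cyclin, was hardly detected in any group. None of the 10 genes was called higher in the deposited TPM, and none was called in MET.

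The table holds TPM, a gene's share of all transcripts in a library after correction for transcript length. Levels of different genes can therefore be set side by side, but depth cannot be read from the values and no counting error was computed. Differences were tested with limma on log2(TPM + 0.1) over the 16815 genes with at least 0.5 TPM in at least 4 samples, with adjustment of p-values over all of them, and a gene was called at an adjusted p under 0.05. Nuclear protein-coding genes held 24.3% to 24.8% of TPM in VEH, 21.3% to 21.4% in CJ28 and 24.1% to 24.6% in MET, so mRNA values in CJ28 are shares of a smaller part. The median log2 fold change of all genes was -0.13 for CJ28 against VEH, and 0.01 after median-of-ratios scaling. Of all calls in this comparison, 34.9% were higher in CJ28 as deposited, 52.6% after that scaling, and 59.8% when TPM was recomputed over nuclear protein-coding genes. Every change below is given as deposited, and values after recomputation are added where a call, a count or a direction depends on it. As for the label, the 7 adrenocortical markers summed to 270.5 to 281 TPM in VEH, 109 to 116 in CJ28 and 269 to 284 in MET. The 10 markers of blood, endothelial and fibroblast cells summed to at most 2.19 TPM in any sample, and CD3E was listed at 0 in all 12. The part of the adrenocortical markers in the results was not tested.

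In VEH the inhibitors stood above the cyclins, with the exception of CDKN2B. CDKN2A had the highest level, 61.6 ± 3.65 TPM (SD, n = 4 here and for every value with ±), and CDKN2C followed at 60.0 ± 2.50, with overlapping samples. CDKN1A held 24.7 ± 0.256 TPM and CDKN1B 22.1 ± 0.348. Below them came CCNE1 at 17.1 ± 0.697, CCND2 at 15.02 ± 0.945, CCND3 at 13.3 ± 0.371 and CCNE2 at 11.6 ± 0.590 TPM. In this order only CDKN2A and CDKN2C overlapped as neighbours. CDKN2B was low at 2.28 ± 0.284 TPM, and CCND1 was lowest at 0.0925 ± 0.0443 TPM. These are levels of a gene per length of transcript, with no test between genes.

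**Figure D1:**
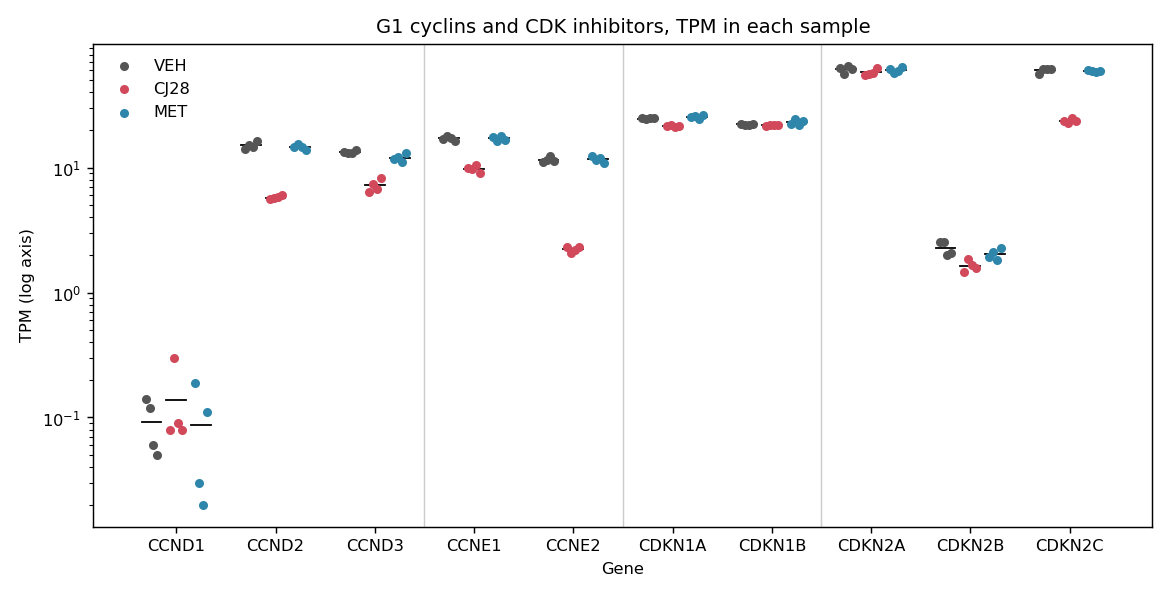
TPM (log axis) of the 10 genes in each of the 12 samples, with VEH in grey, CJ28 in red and MET in blue, and a black line at each group mean. The CJ28 samples lie apart from the VEH samples for CCND2, CCND3, CCNE1, CCNE2 and CDKN2C by more than the spread within groups. This holds for CDKN1A too, at 21.25 to 21.8 TPM in CJ28 and 24.29 to 24.87 TPM in VEH. CCND1 stays at 0.3 TPM or less in every sample.

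RefSeq promoter windows (GRCh38.p14) were found for 7 of the 10 genes. CCND1, CCND2 and CCNE2 had no entry. The 7 genes had 12 start sites among them, 3 each for CCND3 and CDKN2C. The 250 bases before each start were searched on both strands. Of these, 5 are shown: the windows of the first 2 of the 3 CDKN2C starts and of CCNE1, which fell in CJ28, and those of CDKN1A and CDKN1B, which stayed near VEH. They are given 5′ to 3′ on the strand of the gene, with GC boxes (GGGCGG or its complement) in capitals:
CDKN2C, start at the first base of the gene, chr1:50960495-50960744 (+): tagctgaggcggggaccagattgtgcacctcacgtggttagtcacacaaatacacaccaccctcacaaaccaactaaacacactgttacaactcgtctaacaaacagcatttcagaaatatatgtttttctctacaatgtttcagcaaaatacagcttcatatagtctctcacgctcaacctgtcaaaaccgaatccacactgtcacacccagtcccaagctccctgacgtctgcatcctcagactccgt
CDKN2C, second start, chr1:50968456-50968705 (+): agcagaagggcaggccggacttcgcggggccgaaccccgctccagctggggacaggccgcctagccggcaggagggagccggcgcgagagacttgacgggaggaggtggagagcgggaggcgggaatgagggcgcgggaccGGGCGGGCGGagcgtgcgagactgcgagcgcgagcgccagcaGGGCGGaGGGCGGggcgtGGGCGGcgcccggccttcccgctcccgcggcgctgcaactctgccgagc
CCNE1, chr19:29811741-29811990 (+): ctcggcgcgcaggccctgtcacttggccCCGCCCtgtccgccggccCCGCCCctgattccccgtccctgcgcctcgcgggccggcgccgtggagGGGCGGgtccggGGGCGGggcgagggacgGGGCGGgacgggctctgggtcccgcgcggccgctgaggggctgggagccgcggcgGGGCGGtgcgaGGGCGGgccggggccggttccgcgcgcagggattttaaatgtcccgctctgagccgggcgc
CDKN1A, chr6:36678464-36678713 (+): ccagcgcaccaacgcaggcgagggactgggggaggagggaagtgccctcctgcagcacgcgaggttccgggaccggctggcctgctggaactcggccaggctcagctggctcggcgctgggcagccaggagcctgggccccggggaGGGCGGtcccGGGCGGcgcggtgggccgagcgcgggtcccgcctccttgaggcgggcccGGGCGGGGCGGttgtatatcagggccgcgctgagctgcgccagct
CDKN1B, chr12:12717118-12717367 (+): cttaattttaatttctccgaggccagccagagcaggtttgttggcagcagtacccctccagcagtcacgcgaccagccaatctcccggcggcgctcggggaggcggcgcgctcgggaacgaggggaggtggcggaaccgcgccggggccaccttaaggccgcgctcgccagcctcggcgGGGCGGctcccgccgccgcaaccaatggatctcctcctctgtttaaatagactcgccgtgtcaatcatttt

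The GC box, the core of sites for SP factors, occurred in 9 of the 12 windows, against 42.6% of 35116 windows of the same length in RefSeq. CCNE1 had 7 of them and CDKN1B had 1, while the first CDKN2C start had 0 the second 5 and the third 1. GC content ran from 45.6% at the first CDKN2C start to 81.2% at CCNE1. The core of the element bound by the aryl hydrocarbon receptor, GCGTG, occurred in 7 of the 12 windows against 32.2% of all. It began 185 bases before the start of CDKN1B, 195 bases before that of CDKN1A and 80 bases before the first start of CDKN2C. Before the second CDKN2C start it began at 98 and at 53 bases. The RefSeq starts of CDKN1A and CDKN1B lie 2254 and 2310 bases inside the genes as deposited, so their windows are not upstream of the deposited gene. CCAAT occurred in 4 of 12 windows against 32.0% of all. None of the 12 windows held an E2F motif as searched (TTTCCCGC, TTTCGCGC, TTTGCCGC or TTTGGCGC, in 2.79% of all windows), the CHR motif TTTGAA or TTCGAA (14.3%), the cAMP element TGACGTCA (1.65%) or TGATGNAA, an ATF4 element (3.14%). The motifs shared no base in these windows except 1 base at the second CDKN2C start. The RefSeq windows were not matched to these 12 by GC content, and several of the 12 come from the same gene. A match of letters is not a binding site, and which start these cells used was not tested.

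The E-type cyclins carried the strongest decrease. CCNE2 (chromosome 8, 94879770 to 94896678 on GRCh38), a partner of CDK2, had 11.07, 11.59, 12.41 and 11.27 TPM in VEH and 2.31, 2.07, 2.19 and 2.32 TPM in CJ28. The CJ28 mean was 5.21 times lower, and no CJ28 sample came near the VEH range. On the log2 scale this was -2.33 with a standard error of 0.057 (limma, adjusted p = 9.2e-12), rank 56 from the lowest of the 16815 genes. CCNE1 (chromosome 19, 29811991 to 29824312) fell less, from 16.9, 17.94, 17.3 and 16.28 TPM in VEH to 9.98, 9.78, 10.43 and 9.08 TPM in CJ28. It was 1.74 times lower, or -0.80 on the log2 scale with a standard error of 0.051 (limma, adjusted p = 4.8e-08). The groups did not overlap for either cyclin. INTS8 and NDUFAF6 overlap CCNE2 on the opposite strand and held 12.5 and 5.96 TPM in VEH, 13.7 and 5.06 TPM in CJ28. The libraries were stranded, but the strand setting of the counting is not given in the sources used here.

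Among the D-type cyclins, CCND2 (chromosome 12, 4273762 to 4305353) had 13.97, 15.17, 14.72 and 16.23 TPM in VEH and 5.56, 5.67, 5.76 and 6.02 TPM in CJ28. The 4 CJ28 values lay close together and far below the lowest VEH value. The mean was 2.61 times lower, and limma gave -1.37 on the log2 scale with a standard error of 0.052 (adjusted p = 3.2e-10). CCND3 (chromosome 6, 41934933 to 42050357) went from 13.36, 12.95, 13.11 and 13.8 TPM to 6.37, 7.36, 6.75 and 8.32 TPM. The CJ28 samples of CCND3 were more spread (SD 0.851) than those of CCND2 (SD 0.196), and again did not overlap with VEH. Here limma gave -0.88 with a standard error of 0.077 (adjusted p = 8.0e-07).

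CCND1 (chromosome 11, 69641156 to 69654474) stood at 0.14, 0.12, 0.06 and 0.05 TPM in VEH, at 0.08, 0.3, 0.09 and 0.08 TPM in CJ28, and at 0.19, 0.03, 0.02 and 0.11 TPM in MET. It failed the filter on low values and is the only one of the 10 genes without a test in the fit. The other 9 had more than 0.5 TPM in every sample, so none passed through a single group. When all 40973 genes above 0 TPM were tested, CCND1 had a log2 fold change of 0.24 in CJ28 with a 95% confidence interval of -0.52 to 1.00 (adjusted p = 0.70 in limma). That interval is wide, and at these levels the deposited rounding to 2 decimals is itself large against the value.

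The INK4 inhibitors did not move as a block. CDKN2C (chromosome 1, 50960745 to 50974634), which encodes p18, fell from 56.28, 61.81, 60.86 and 60.92 TPM in VEH to 23.58, 22.75, 25.08 and 23.38 TPM in CJ28. The highest CJ28 sample was thus far under the lowest VEH sample. The mean was 2.53 times lower, a log2 difference of -1.34 with a standard error of 0.039 (limma, adjusted p = 3.4e-11). It was the only inhibitor among the 10 genes with a change of the size seen for the cyclins.

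CDKN2A (chromosome 9, 21967753 to 21995301) had 63.04, 56.47, 64.99 and 61.9 TPM in VEH and 54.8, 56.36, 57.41 and 62.86 TPM in CJ28. The groups overlapped. The log2 fold change was -0.09, with a 95% confidence interval of -0.21 to 0.03 (adjusted p = 0.18 in limma), and it was 0.12 with TPM over nuclear protein-coding genes (adjusted p = 0.080 in limma). CDKN2B (chromosome 9, 22002903 to 22009305) lies beside it, and had 2.52, 2.52, 2 and 2.06 TPM in VEH and 1.45, 1.84, 1.67 and 1.58 TPM in CJ28. It was lower without overlap, by -0.45 on the log2 scale with a standard error of 0.11 (limma, adjusted p = 0.0034). With TPM over nuclear protein-coding genes this was -0.26 and no longer passed (adjusted p = 0.053 in limma).

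The same stretch of chromosome 9 holds MTAP (21802636 to 21937651), an enzyme of methionine salvage, and the antisense RNA CDKN2B-AS1 (21994139 to 22128103), which overlaps CDKN2A and CDKN2B on the other strand. MTAP had 10.6 TPM in VEH and 9.97 in CJ28, with a log2 fold change of -0.08 (adjusted p = 0.40 in limma) that turned to 0.13 with TPM over nuclear protein-coding genes (adjusted p = 0.14). CDKN2B-AS1 fell from 5.59 ± 0.367 to 4.02 ± 0.660 TPM (log2 fold change -0.48, adjusted p = 0.0043 in limma). CDKN2A and CDKN2B are close relatives in sequence, and RSEM divides reads that match both, so their values may not be fully separate. Whether reads of the antisense RNA were kept apart from theirs is not known, since the strand setting of the counting is not given.

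As a family the CIP/KIP inhibitors changed least in the deposited TPM, although the INK4 gene CDKN2A (-0.09) changed less than CDKN1A. CDKN1A (chromosome 6, 36676460 to 36687339), which encodes p21, had 24.87, 24.29, 24.76 and 24.73 TPM in VEH and 21.61, 21.8, 21.25 and 21.46 TPM in CJ28. The replicates were tight and the groups did not overlap, but the fall was only 12.7%. In limma this was -0.20 on the log2 scale, with a standard error of 0.030 (adjusted p = 1.2e-04). It was -0.04 after median-of-ratios scaling and 0.01 with TPM over nuclear protein-coding genes (adjusted p = 0.32 and 0.82 in limma), so the call did not outlast either scaling.

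CDKN1B (chromosome 12, 12715058 to 12722369), which encodes p27, had 22.38, 21.7, 22.04 and 22.46 TPM in VEH and 21.44, 21.7, 22.06 and 21.92 TPM in CJ28. The ranges overlapped, and the log2 fold change was -0.02, with a 95% confidence interval of -0.10 to 0.06 (adjusted p = 0.60 in limma). The direction turned with the scaling: it was 0.13 after median-of-ratios scaling (adjusted p = 0.016 in limma) and 0.18 with TPM over nuclear protein-coding genes (adjusted p = 6.9e-04 in limma). CDKN1B was thus not called as a share of all RNA and higher as a share of mRNA. An lncRNA listed as AC008115.3 overlaps it on the same strand, with 3.72 TPM in VEH and 2.97 in CJ28.

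In total 7 of the 10 genes were called lower and 0 higher in CJ28 than in VEH. Of all genes tested, 57.0% were called, 37.1% lower and 19.9% higher. With TPM over nuclear protein-coding genes 5 of the 10 were lower (CCND2, CCND3, CCNE1, CCNE2 and CDKN2C) and 1 higher (CDKN1B), against 26.3% lower and 39.2% higher, or 65.6% in all, of the genes tested there. On linear TPM, 7 of the 10 genes had CJ28 samples that did not overlap with VEH, all of them lower, as did 50.3% of all genes tested, 32.7% lower. For each of these 7 a two-sided exact permutation test gave p = 0.0286, the smallest that 4 against 4 samples allow. With 30 such tests over genes and comparisons, none passed after Benjamini-Hochberg adjustment over the 30. Passing would have needed most of the 30 tests at this smallest p, so no conclusion is drawn from that outcome.

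**Figure D2:**
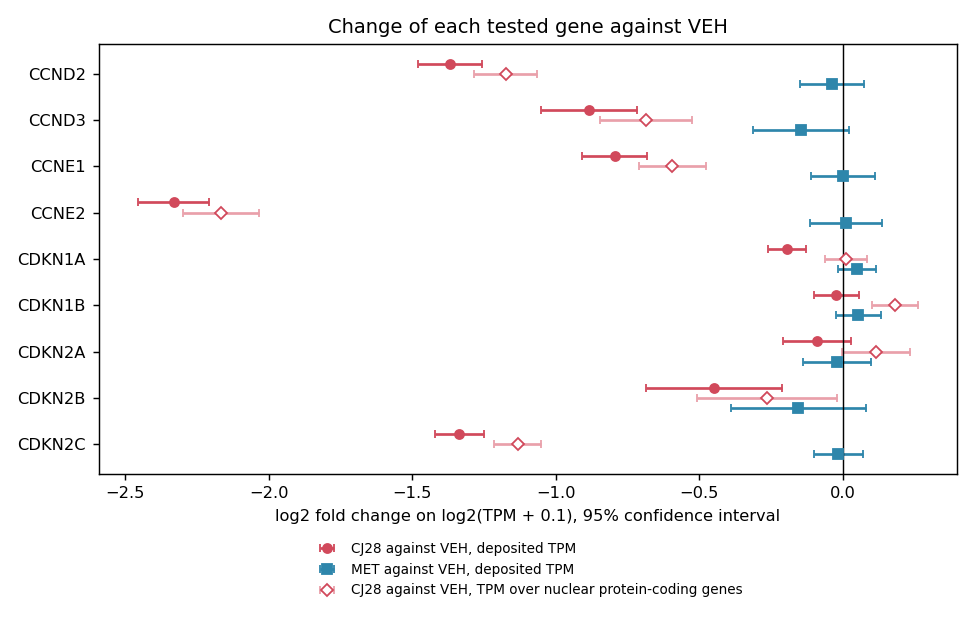
Log2 fold change with its 95% confidence interval for the 9 tested genes, for CJ28 against VEH (red circles), for the same comparison with TPM recomputed over nuclear protein-coding genes (open diamonds) and for MET against VEH (blue squares). CCNE2, CCND2 and CDKN2C lie beyond -1 under both forms for CJ28, whereas CDKN1A moves from -0.20 to 0.01 and CDKN1B from -0.02 to 0.18, and all MET intervals include 0.

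Members of a family did not fall alike, and the make-up of each family differed between CJ28 and VEH. These shares and ratios are taken within a sample, so a factor common to all genes of a library leaves them unchanged, and they are given as descriptions without a test. CCNE2 held 40.4% ± 1.17 of the E-type TPM in VEH and 18.5% ± 1.40 in CJ28. CCND2 held 52.8% ± 1.41 of the D-type TPM in VEH and 44.1% ± 2.27 in CJ28, where CCND3 became the larger part at 54.9% ± 2.09. CCND1 accounted for 0.329% ± 0.165 of the D-type TPM in VEH. In the INK4 family CDKN2C went from 48.4% ± 2.11 to 28.5% ± 1.47, and CDKN2A from 49.7% ± 2.17 to 69.5% ± 1.496. The 2 CIP/KIP genes stayed nearly even, with CDKN1B at 47.3% ± 0.221 in VEH and 50.3% ± 0.540 in CJ28.

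The summed TPM of E-type cyclins went from 28.7 ± 1.09 in VEH to 12.0 ± 0.531 in CJ28, and that of D-type cyclins from 28.4 ± 1.15 to 13.1 ± 1.04. Both sums were thus lower by a similar factor, 2.38 and 2.17, and the ratio of E-type to D-type TPM, 1.01 ± 0.0664 in VEH and 0.926 ± 0.108 in CJ28, overlapped between the groups. The CIP/KIP sum was 46.8 ± 0.580 and 43.3 ± 0.190 TPM. The ratio of CIP/KIP to E-type TPM rose from a range of 1.56 to 1.71 in VEH to 3.43 to 3.81 in CJ28, 2.21 times higher on average. The ratio of INK4 to D-type TPM was 4.15 to 4.58 in VEH and 6.07 to 6.68 in CJ28. In MET all shares and ratios named here overlapped with VEH. The ratios were chosen after values had been seen.

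**Figure D3:**
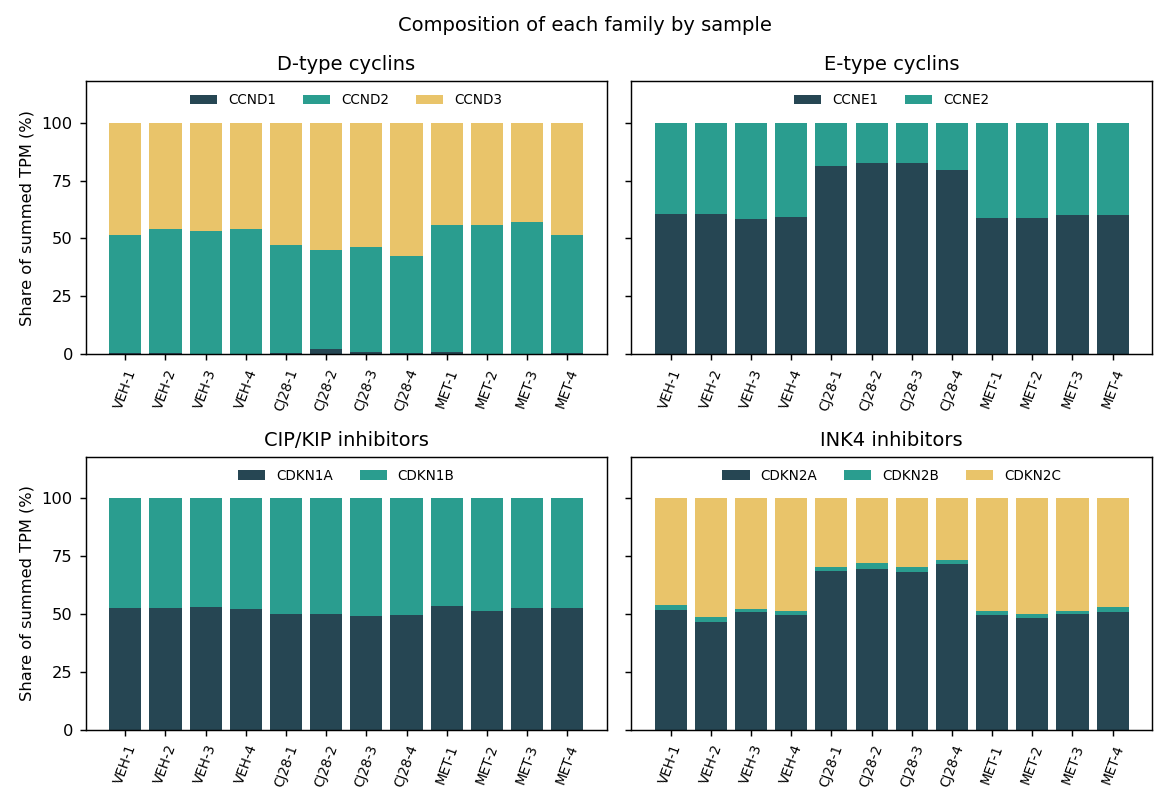
Share of summed TPM (%) that each gene holds within its family, in 12 samples (4 VEH, 4 CJ28, 4 MET). The CCNE2 part of the E-type bars and the CDKN2C part of the INK4 bars are smaller in all 4 CJ28 samples than in the other 8, and the CIP/KIP bars are split nearly evenly in all 12.

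MET left all 10 genes near VEH. Of the 9 tested, 0 were called, and 0 had an unadjusted p under 0.05 in limma. Of all 16815 genes tested, 0.00595% were called (1 gene) and 874 had an unadjusted p under 0.05. CCND3 had the lowest p of the 9. It had 11.79, 12.24, 10.98 and 13.08 TPM in MET, of which 1 sample lay inside the VEH range, and a log2 fold change of -0.15 with a 95% confidence interval of -0.31 to 0.02 (adjusted p = 0.93 in limma). CCNE2 had 12.33, 11.51, 11.96 and 10.9 TPM in MET, with a log2 fold change of 0.01 and an interval of -0.11 to 0.14. For CCNE1 the interval was -0.11 to 0.11, for CCND2 -0.15 to 0.07 and for CDKN2C -0.10 to 0.07. CDKN1A ran from 24.67 to 26.28 TPM and CDKN1B from 22.08 to 24.27 TPM in MET, with intervals of -0.02 to 0.11 and -0.03 to 0.13. The least certain was CDKN2B, at 1.82 to 2.27 TPM and an interval of -0.39 to 0.08. No MET group was separate from VEH for any of the 10 genes. Among all genes tested the share was 2.81%, so the lack of such a gene among 10 does not set them apart. The lowest p in the exact permutation test was 0.0571, for CCND3.

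At the same dose and time, CJ28 and MET were compared directly. The same 7 genes were lower in CJ28 than in MET, against 34.6% lower and 20.9% higher, or 55.5% in all, of the genes tested. The CJ28 samples here are also those of the comparison with VEH. CCNE2 had a log2 fold change of -2.34 (adjusted p = 8.9e-12 in limma), CCND2 -1.33, CDKN2C -1.32, CCNE1 -0.80 and CCND3 -0.74. CDKN1A was lower by 15.7% (log2 fold change -0.24, adjusted p = 1.9e-05 in limma). It was still called after median-of-ratios scaling, at -0.12 (adjusted p = 0.0092 in limma). With TPM over nuclear protein-coding genes it was -0.05 and not called (adjusted p = 0.17 in limma). CDKN2B passed narrowly, with a log2 fold change of -0.29 (adjusted p = 0.035 in limma). That call was lost when any of 5 single libraries was left out (CJ28 replicates 1, 3 and 4, MET replicates 2 and 4), with adjusted p in limma between 0.054 and 0.10, and also on testing all genes above 0 TPM (adjusted p = 0.072), after median-of-ratios scaling (-0.18, adjusted p = 0.18) and with TPM over nuclear protein-coding genes (-0.12, adjusted p = 0.38). CDKN2A and CDKN1B were not called, with log2 fold changes of -0.07 (adjusted p = 0.30 in limma) and -0.08 (adjusted p = 0.092 in limma). With TPM over nuclear protein-coding genes CDKN1B turned to 0.11 and passed (adjusted p = 0.016 in limma). In linear TPM, CJ28 and MET did not overlap for 7 of the 10 genes, all lower in CJ28, as for 50.2% of all genes tested (31.3% lower). These 7 included CDKN1B, and not CDKN2B, where the groups overlapped.

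Other genes of G1 control were set beside these by list. Their counts stand against 37.1% lower and 19.9% higher among all genes as deposited, and against 26.3% lower and 39.2% higher, with a median log2 fold change of 0.09, with TPM over nuclear protein-coding genes. After median-of-ratios scaling, 4430 of all 16815 genes were lower and 4925 higher, with a median of 0.01. The kinases that the cyclins bind showed a split. Of 8 G1 kinases and activators tested, 4 rose, 3 fell and 1 did not pass, with a median log2 fold change of 0.07 beside -0.13 for all genes. With TPM over nuclear protein-coding genes 5 were higher and 2 lower (median 0.28), and after median-of-ratios scaling 5 and 3 (median 0.22). CDK2, the partner of the E-type cyclins, fell from 89.4 ± 3.39 to 56.6 ± 1.18 TPM (log2 fold change -0.66). CDC25A, a phosphatase that activates CDK2, fell from 16.02 ± 1.26 to 8.56 ± 0.530 TPM (-0.90). CDK6 rose from 16.2 ± 1.02 to 23.4 ± 0.496 TPM (0.53), and CDK7, part of the CDK-activating kinase, from 9.37 ± 0.135 to 13.6 ± 0.551 TPM (0.53). CDK4 held 90.7 ± 2.07 TPM in VEH and 86.8 ± 2.26 in CJ28 (log2 fold change -0.06, adjusted p = 0.086 in limma). Its direction turned with the scaling, to 0.09 after median-of-ratios scaling (adjusted p = 0.023 in limma) and 0.14 with TPM over nuclear protein-coding genes (adjusted p = 6.3e-04 in limma). CDK6 made up 15.1% ± 0.676 of the TPM of CDK4 and CDK6 in VEH and 21.2% ± 0.532 in CJ28. The E-type cyclin sum per CDK2 went from 0.321 ± 0.0202 to 0.213 ± 0.0136, so the cyclins fell further than the kinase.

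Among 5 further inhibitors and related genes, 4 were tested, of which 2 fell and 0 rose as deposited (median -0.25). Under both scalings 2 were lower and 1 higher. The latter was CCNG1, a cyclin of the G type named after its values were seen, with a log2 fold change of 0.11 as deposited (adjusted p = 0.054 in limma) and 0.32 with TPM over nuclear protein-coding genes (adjusted p = 4.0e-05 in limma). CDKN3, a phosphatase acting on CDK2, fell from 57.6 to 34.1 TPM (log2 fold change -0.75) and CDKN2D, the fourth INK4 gene, from 4.25 to 2.82 TPM (-0.58). CDKN1C, the third CIP/KIP gene, was under the filter at 0.14 ± 0.0583 TPM in VEH and 0.10 ± 0.0408 in CJ28. CDKN1A and CDKN1B are thus the CIP/KIP genes that passed the filter.

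Of 16 genes for the breakdown of cyclins and of p27, 12 fell and 2 rose (median log2 fold change -0.36). SKP2, the ubiquitin ligase subunit that marks p27 for breakdown, fell from 55.2 ± 2.97 to 27.1 ± 0.321 TPM (-1.02), and CUL3 from 10.1 ± 0.543 to 5.20 ± 0.466 TPM (-0.95). CDC34, a ubiquitin-conjugating enzyme, rose from 14.6 to 19.7 TPM (0.43). FBXO4, described as a ligase subunit for cyclin D1, rose from 4.23 to 5.34 TPM (0.33, adjusted p = 0.024 in limma). That call was lost on leaving out VEH replicate 1 or 3 or CJ28 replicate 3 or 4 (adjusted p in limma 0.050 to 0.066) or on testing all genes above 0 TPM (0.054). It was kept after median-of-ratios scaling (0.48, adjusted p = 0.0028 in limma) and with TPM over nuclear protein-coding genes (0.54, adjusted p = 5.8e-04 in limma). Of the 16, 10 were lower and 3 higher with TPM over nuclear protein-coding genes (median -0.16).

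All 13 pocket protein and E2F genes were called, 12 lower and 1 higher (median -0.45), and with TPM over nuclear protein-coding genes 8 were, 7 lower and 1 higher. E2F2 fell from 3.15 to 1.03 TPM (-1.51) and E2F7, a repressor among the E2F factors, from 7.83 to 3.17 TPM (-1.28), whereas E2F5, which mostly acts with repressive pocket proteins, rose from 2.26 to 4.66 TPM (1.01). Beside the fall of the G1 cyclins stood that of later cyclins and cycling-cell markers. All 12 tested genes of this list fell, and all 12 with TPM over nuclear protein-coding genes too. Their median log2 fold change was -1.02, and their summed TPM, over all 13 listed, was 604 to 633 in VEH, 295.1 to 300.3 in CJ28 and 608 to 629 in MET. MKI67, which marks cycling cells, fell from 43.9 ± 4.78 to 14.4 ± 1.58 TPM (-1.60) and PCNA, the clamp of DNA polymerase, from 110 ± 3.39 to 41.5 ± 2.12 TPM (-1.40). CCNA1 was listed at 0 in all 4 CJ28 samples and was not tested. Their part in the change of CCNE2, CCND2 or CDKN2C was not tested.

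Among 13 tested regulators and neighbours of the INK4 locus, 4 rose, 2 fell and 7 did not pass (median -0.03). With TPM over nuclear protein-coding genes, which leaves out CDKN2B-AS1, 5 of 12 were higher and 1 lower, and the median turned to 0.24. After median-of-ratios scaling 5 of 13 were higher and 2 lower (median 0.12). KDM6B, a histone demethylase, rose from 0.685 to 1.94 TPM (1.44), and ID1, which blocks bHLH transcription factors, from 2.23 to 4.73 TPM (1.05). EZH2, a Polycomb methyltransferase, fell from 24.87 to 15.96 TPM (-0.64). Of 16 transcriptional regulators of p21, p27 and p15, 6 rose, 4 fell and 6 did not pass (median 0.01). Recomputed over nuclear protein-coding genes, 8 were higher and 2 lower (median 0.22), and after median-of-ratios scaling 7 and 2 (median 0.16). DDIT3, a factor of the stress response, rose from 16.8 ± 0.316 to 155 ± 8.29 TPM (3.20). AHR, the aryl hydrocarbon receptor, had 4.69, 4.84, 5.18 and 4.31 TPM in VEH and 10.72, 11.17, 11.92 and 9.73 TPM in CJ28 (1.18). SP1 and SP3, which bind GC boxes, fell from 20.4 to 15.8 TPM (-0.36) and from 31.5 to 25.2 TPM (-0.32). All list genes named as risen or fallen, except FBXO4, had an adjusted p of 0.0043 or less in limma. For MET against VEH, 0 of the 82 tested list genes were called, and 7 had an unadjusted p under 0.05 in limma. Among all 16815 genes tested, 1 was called and 874 had such an unadjusted p.

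**Figure D4:**
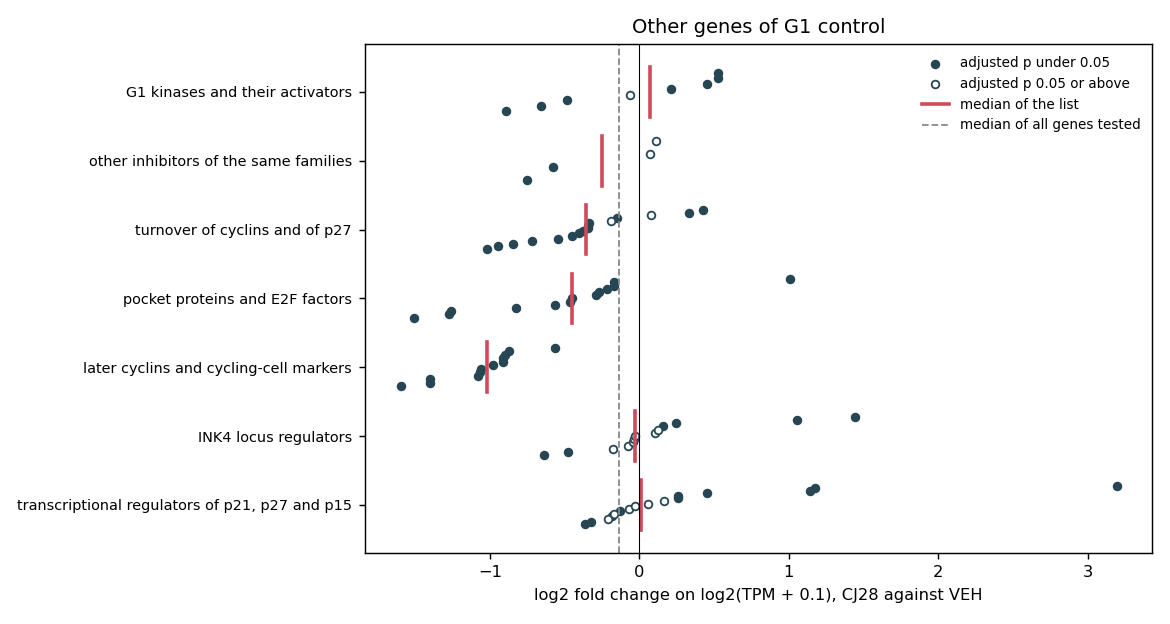
Log2 fold change for CJ28 against VEH of each tested gene in 7 lists, filled where the adjusted p in limma is under 0.05, with the median of each list in red and that of all genes as a dashed line at -0.13. Later cyclins and cycling-cell markers all lie left of the dashed line, while the G1 kinases and the regulators of p21, p27 and p15 lie on both sides.

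The gene with the largest fall was also compared with every other gene across the samples. Over the 12 samples, the patterns most like CCNE2 among 13305 genes with a mean of at least 1 TPM were those of GNRHR, the receptor of gonadotropin-releasing hormone (Pearson's r = 0.999), CYP11A1, which makes pregnenolone from cholesterol (r = 0.999), and UBE2C, a ubiquitin-conjugating enzyme of mitosis (r = 0.998). Their log2 fold changes in CJ28 were -2.23, -1.36 and -0.90. These correlations mostly reflect the step between CJ28 and the other 8 samples, since with group means removed they were 0.49, 0.47 and 0.61.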

How the data were processed

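NCI-H295R cells were profiled by RNA-seq in 12 samples, 4 each of VEH, CJ28 and MET, grouped by the sample titles. Per the labels and the methods of the study, total RNA went through ribosomal depletion and a stranded library kit, and the authors trimmed adaptors with Cutadapt (version 2.8), mapped reads to GRCh38 with STAR (version 2.7.10b) and quantified genes with RSEM (version 1.3.3). The authors deposited TPM, rounded to 2 decimals. The annotation release is not given in the sources used here. The table also gives gene coordinates. The study assessed differences with DESeq2 on counts, which were not used here. TPM is no count, so limma (version 3.58.1, R version 4.3.3) was fitted to log2(TPM + 0.1) for the 16815 genes reaching 0.5 TPM in 4 samples or more, in a single fit of the 12 samples with an eBayes trend, no covariates, two-sided tests and Benjamini-Hochberg adjustment. Fold changes on this scale understate changes of low genes. The procedure was tested on simulated data. Exact permutation tests used scipy (version 1.17.1).

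Among the 12 samples 0 pairs were identical, with a correlation of at most 0.972. The labels do not say whether replicates were separate cultures, so p-values measure only the spread between these samples, which may be technical. Named were all 10 genes and, per list, the 2 largest rises and falls with an adjusted p under 0.05 and a mean of at least 1 TPM. Named too were the 3 genes most like the member with the largest fall (no tested member rose in the deposited TPM). Genes added after their values were seen were CDK4, CCNG1, CDKN1C, MTAP, CCNA1, INTS8, NDUFAF6 and AC008115.3. The members and lists were chosen with earlier results of these data known. Alternatives were pseudocounts of 1 and 0.01, no filter, a mean of at least 1 TPM, median-of-ratios scaling, TPM recomputed over nuclear protein-coding genes, a fit on 8 samples alone, a block for the replicate number, unmoderated variances, and leaving out each sample. Promoters were read from RefSeq (GRCh38.p14). A further list of genes is not reported here.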

Additional observations from a re-analysis of the deposited data

Results flagged for a closer look

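CCND1 in CJ28 replicate 2 stood at 0.3 TPM, apart from the other 3 CJ28 samples at 0.08 to 0.09 TPM. Its gap to the nearest sample was 0.955 of the range of the group, above the critical value of Dixon at 95% for 4 samples. It was the only such value in 30 sets of 4 samples (10 genes in 3 groups), and chance alone gives about 1 in 20. At this level no reads can be counted from TPM, and CCND1 was not tested in the fit.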

How the results depend on the processing

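The number of the 10 genes called in CJ28 against VEH was 7, with 6 to 7 over the 21 alternatives, and 7 each time a sample was left out. Against MET it was 7, with 6 to 7 over the 21. It was 0 for MET against VEH under all 21. CCND2, CCND3, CCNE1, CCNE2 and CDKN2C kept their direction and their call in CJ28, against VEH and against MET, in all 21. The smallest fold changes against VEH were -1.17, -0.69, -0.60, -1.97 and -1.13 in that order, for CCNE2 with a pseudocount of 1 and for the others with TPM over nuclear protein-coding genes. That recomputation and median-of-ratios scaling shift all genes by construction. For CJ28 against VEH they turned CDKN1A to 0.0095 (recomputed only), CDKN1B to 0.18 and 0.13, and CDKN2A to 0.12 and 0.062. For CJ28 against MET they turned CDKN1B to 0.11 and 0.04 and CDKN2A to 0.12 and 0.052. For MET against VEH scaling turned CDKN2A to 0.0104 and CDKN2C to 0.0147, and with single samples left out CCNE1 ranged from -0.023 to 0.0235, CCNE2 from -0.016 to 0.044 and CDKN2A from -0.062 to 0.0077, all without a call. The count of all genes called for MET against VEH, 1, was 0 with a pseudocount of 1, 0 with 0.01 and 0 with a mean of at least 1 TPM, 5 without a filter, 2 over nuclear protein-coding genes, and 1 to 2 with a sample left out (2 without VEH replicate 4 or MET replicate 4), and the cause was not tested.

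No pairing of the samples by replicate number was seen in the values. Deviations of samples with the same number correlated on average at 0.024 for CJ28 and VEH, at -0.024 for MET and VEH and at -0.048 for CJ28 and MET. Such values cannot show whether samples with the same number were handled together. With the replicate number as a block, 7 of the genes were called against VEH and 7 against MET, and 9546, 1 and 9361 of all genes for CJ28 against VEH, MET against VEH and CJ28 against MET (9577, 1 and 9334 without it). Depth cannot be read from TPM, so no counting error stands beside any value.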

Other observations

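With group means removed, the 36 pairs among the 9 tested genes had Pearson's r over the 12 samples between -0.83 and 0.65, with a median of -0.04. The highest value was that of CDKN1A and CDKN1B and the lowest that of CCNE1 and CCND3. All pairs share their libraries, and no test was made.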
